A study of Mus musculus with 68 samples.

Results

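The 37 genes described here encode the machinery that copies DNA before a cell divides. They comprise 4 origin licensing factors (Orc1, Orc6, Cdc6, Cdt1), the 6 subunits of the MCM helicase (Mcm2 to Mcm7), 4 factors that activate the helicase (Mcm10, Cdc45, Gins1, Gins2), 6 polymerase and primase subunits (Pola1, Pola2, Prim1, Prim2, Pold1, Pole), 6 genes of the sliding clamp and its loader (Pcna, Rfc1 to Rfc5), 3 genes of single-strand binding and the fork checkpoint (Rpa1, Rpa2, Clspn), 3 of flap removal, ligation and uracil repair (Fen1, Lig1, Ung), 3 of nucleotide supply (Rrm1, Rrm2, Tyms) and 2 of chromatin assembly (Chaf1a, Chaf1b). The genes were listed by name and function rather than by a measured value, although earlier results of these data were known. All 37 were found among the 24059 gene symbols that both count tables hold. The data are total RNA libraries of mouse bone marrow cells enriched by flow cytometry along the erythroid lineage, 68 in all, prepared with a stranded low-input kit. The stage series holds 38 libraries with no genotype in the labels: BFU-E (burst-forming erythroid progenitors, n = 3), CFU-E (colony-forming erythroid progenitors, n = 5), ERY-I (proerythroblasts, n = 7), ERY-II (basophilic erythroblasts, n = 4), ERY-III (polychromatic, n = 4), ERY-IV (orthochromatic, n = 4), ERY-V (reticulocytes, n = 7) and ERY-VI (red blood cells, n = 4). The knockout series holds 30 libraries, 3 each of WT and GS-KO from BFU-E, CFU-E, ERY-I-II (proerythroblasts and basophilic erythroblasts), ERY-III-VI (polychromatic and orthochromatic, gate name as labelled) and ERY-V-VI (reticulocytes and red blood cells). Strain, age, the allele, any Cre driver and whether the deletion extends beyond erythroid cells are details not given in the sources used here.

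DNA replication starts at origins that the origin recognition complex, Cdc6 and Cdt1 load with the MCM helicase. Cdc45 and the GINS complex then activate the helicase, primase and DNA polymerase alpha lay down primers, and polymerases delta and epsilon extend them while held by the PCNA ring, which the RFC complex loads. Ribonucleotide reductase, made of the Rrm1 and Rrm2 subunits, and thymidylate synthase supply the deoxynucleotides, and many of these genes are known targets of E2F transcription factors. Erythroid progenitors divide several times while they mature, and red blood cells have lost their nucleus.

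The promoter windows of these genes are shown for the members on which the comparisons below turn, in order to place each gene's E2F-type motifs beside its values. RefSeq windows (build GRCm38.p6) covering the 250 bases before the start were available for 31 of the 37 members. The motifs searched were the E2F-type octamers TTTCCCGC, TTTGGCGC, TTTCGCGC and TTTGCCGC on both strands, of which overlapping matches were merged. At least 1 occurred in 7 of 35 member windows (20%), those of Orc1, Cdc6, Mcm5, Mcm6, Mcm7, Pola1 and Rfc3, against 1.86% of all 32851 windows. CCAAT on either strand occurred in 60% of the member windows and in 33.8% of all windows, and TTTGAA, the core of the CHR element of mitotic genes, in 8.57% and 16%. Each line below gives the stretch of the window that overlaps no exon, 5′ to 3′ on the gene's strand, with E2F-type motifs in capitals. Cdc6 loads the helicase (chr11:98907982-98908150, + strand, intronic in the GENCODE M21 gene model), Mcm5 and Mcm6 are helicase subunits (chr8:75109259-75109508, + strand, and chr1:128359706-128359955, − strand), Pola1 is the catalytic subunit of polymerase alpha (chrX:93632156-93632405, − strand), Rrm2 is the small subunit of ribonucleotide reductase (chr12:24708004-24708240, + strand) and Ung removes uracil from DNA (chr5:114130185-114130385, + strand). The last 5 lie upstream of the annotated gene.
Cdc6: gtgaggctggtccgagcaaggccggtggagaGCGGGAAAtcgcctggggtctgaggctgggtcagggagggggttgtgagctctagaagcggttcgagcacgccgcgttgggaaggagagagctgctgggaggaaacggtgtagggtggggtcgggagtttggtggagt
Mcm5: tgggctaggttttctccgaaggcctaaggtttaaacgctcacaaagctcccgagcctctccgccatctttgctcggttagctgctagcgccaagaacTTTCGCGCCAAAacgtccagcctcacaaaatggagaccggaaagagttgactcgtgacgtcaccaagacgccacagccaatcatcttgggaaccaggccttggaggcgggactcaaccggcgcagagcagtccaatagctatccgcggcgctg
Mcm6: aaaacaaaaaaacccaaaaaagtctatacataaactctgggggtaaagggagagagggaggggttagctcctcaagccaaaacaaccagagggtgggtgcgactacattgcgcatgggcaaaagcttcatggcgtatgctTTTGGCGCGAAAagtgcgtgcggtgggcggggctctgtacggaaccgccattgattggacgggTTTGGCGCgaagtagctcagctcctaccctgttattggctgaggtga
Pola1: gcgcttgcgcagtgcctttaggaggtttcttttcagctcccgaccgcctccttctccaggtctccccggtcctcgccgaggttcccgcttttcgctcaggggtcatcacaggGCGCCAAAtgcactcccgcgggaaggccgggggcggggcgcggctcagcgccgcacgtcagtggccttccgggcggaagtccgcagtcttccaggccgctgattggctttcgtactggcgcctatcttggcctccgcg
Rrm2: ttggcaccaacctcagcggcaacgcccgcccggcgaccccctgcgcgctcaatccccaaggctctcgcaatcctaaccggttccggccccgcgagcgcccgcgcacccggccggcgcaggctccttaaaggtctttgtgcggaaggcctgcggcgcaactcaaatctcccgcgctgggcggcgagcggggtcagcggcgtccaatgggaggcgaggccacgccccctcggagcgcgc
Ung: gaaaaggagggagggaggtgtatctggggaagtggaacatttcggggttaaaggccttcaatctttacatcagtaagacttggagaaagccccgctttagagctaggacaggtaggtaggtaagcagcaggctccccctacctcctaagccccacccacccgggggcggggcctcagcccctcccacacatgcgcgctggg
In Cdc6 the motif, in the orientation GCGGGAAA, lay 131 to 138 bases before the start, and in Mcm5 the overlapping TTTCGCGC and GCGCCAAA lay 142 to 153 bases before it. Mcm6 held 3 octamers, of which 2 overlap, and Pola1 held GCGCCAAA at 131 to 138 bases. None of the 4 octamers was in the Rrm2 or Ung stretch shown. A match is a description of letters and not a measured binding site.

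Totals per library lay between 1630863 and 11472763 counts (stage series) and between 3131142 and 15806844 (knockout series), of which the 37 genes together took 0.0113% to 1.72% and 0.353% to 1.79%. Levels are counts per 1000000 of the library total (CPM), and a gene was called changed when edgeR's quasi-likelihood test, scaled by TMM, gave a Benjamini-Hochberg adjusted p below 0.05 over all genes tested. Log2 fold changes are followed by ± their standard error. In the stage series 12 libraries carried transcripts of Y-linked genes, namely replicates 1, 2 and 3 in each of the gates ERY-V, ERY-I, CFU-E and BFU-E. The remaining 26 carried Xist. Chi-square per degree of freedom over genes was 1.44 to 8.58 between replicates within the Y-linked set, 1.29 to 6.26 between those of the knockout series and 7.63 to 98.1 between those with Xist, and pairs with 1 library of each set reached 72.1 to 228. The labels do not say that replicates came from separate animals, so each p-value reflects only the scatter of these libraries, which may be technical. Glul, the glutamine synthetase gene taken here as the target of GS-KO, was lower in all 3 GS-KO than in all 3 WT libraries of every gate, with 120.0 to 125 CPM in WT and 96.1 to 101 in GS-KO BFU-E, 84.2 to 89.7 and 34.7 to 37.5 in CFU-E, 104 to 113 and 12.8 to 16.6 in ERY-I-II, 152 to 167 and 17.0 to 22.5 in ERY-III-VI, and 246 to 268 and 22.3 to 24.0 in ERY-V-VI. As a check of the stage labels, the 10 erythroid markers summed to 785 to 876 CPM in BFU-E, 16251 to 90322 in ERY-I and 476291 to 573778 in ERY-VI, and Epor was at 0 in 2 ERY-VI libraries. In bulk RNA, fewer cycling cells in a gate and less replication mRNA per cell cannot be told apart. TMM and library totals also part ways where a few genes fill the library: the TMM factor was 3.02 to 3.13 in BFU-E and 0.135 to 0.241 in ERY-VI.

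Along the stages the summed level of the members was higher in CFU-E and ERY-I than in BFU-E on the CPM scale and was lowest in ERY-VI. Their summed level was 7444 to 7522 CPM in BFU-E, 10591 to 13505 in CFU-E and 11068 to 17152 in ERY-I. It was 2845 to 5839 in ERY-II, 5635 to 9895 in ERY-III and 1999 to 6119.7 in ERY-IV. In ERY-V it was 262 to 1676 and in ERY-VI 113 to 292 CPM. The median level peaked in ERY-I for 28 of the 37 genes, in CFU-E for 6 (Mcm10, Gins2, Pola2, Pole, Rfc5, Rpa2), in BFU-E for 2 (Pold1, Ung) and in ERY-III for Rrm2. After TMM scaling the peak was in ERY-I for 19, in ERY-III for 14, in CFU-E for 3 and in BFU-E for 1, so the position of the peak depends on the scaling for many members.

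Among the licensing factors, Cdc6 stood at 132, 122 and 123 CPM in the 3 BFU-E libraries, 256, 247, 248, 307 and 281 in the 5 CFU-E libraries and 324 to 460.3 with a median of 447 in ERY-I. Its values were 136, 145, 145 and 58.9 CPM in ERY-II, 193, 266, 241 and 129 in ERY-III and 168, 201, 53.5 and 86.6 in ERY-IV. The BFU-E, CFU-E and ERY-I libraries formed 3 separate ranges for Cdc6, while ERY-II, ERY-III and ERY-IV overlapped, with replicate 4 of ERY-II below the other 3. Mcm5 measured 321, 311 and 324 CPM in BFU-E, 518, 521, 530.0, 715 and 829.2 in CFU-E, 501 to 777 with a median of 689.7 in ERY-I and 224, 174, 162 and 94.0 in ERY-II. It then measured 233, 326, 359 and 178 CPM in ERY-III, 170.4, 189, 77.3 and 105 in ERY-IV, 6.40 to 59.5 with a median of 35.7 in ERY-V and 4.12, 4.26, 3.92 and 2.45 in ERY-VI. All CFU-E libraries lay above all BFU-E libraries for Mcm5, CFU-E and ERY-I overlapped, and all 4 ERY-II libraries lay below all ERY-I libraries.

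Rrm2, whose protein limits deoxynucleotide supply, measured 70.4, 70.2 and 74.9 CPM in BFU-E, 293, 291, 293, 413 and 504 in CFU-E, 732 to 1559 with a median of 1264 in ERY-I and 802, 687, 855 and 506 in ERY-II. It measured 1269, 1272, 1509.8 and 996 CPM in ERY-III, 1006, 797, 293 and 586 in ERY-IV, 66.4 to 203 with a median of 126 in ERY-V and 17.7, 33.1, 30.8 and 45.4 in ERY-VI. Each of BFU-E, CFU-E and ERY-I had its own range for Rrm2, and ERY-I and ERY-III overlapped at the top. Pcna, the clamp, measured 150.3, 141 and 159 CPM in BFU-E, 243, 244, 253, 608 and 668 in CFU-E and 293 to 771 with a median of 683 in ERY-I. Within CFU-E and ERY-I its values fell into separate ranges by library set: the Y-linked CFU-E libraries lay at 243, 244 and 253 CPM and those with Xist at 608 and 668. RefSeq lists pseudogenes of Pcna and Tyms, and how reads shared with them were counted is not given in the sources used here. Clspn, the adaptor of the fork checkpoint, had the opposite order in CFU-E, with 402, 399 and 401 CPM in the Y-linked and 171 and 208 in the Xist libraries.

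The difference between library sets was wide across the members. In CFU-E 27 of the 37 genes were higher in both Xist libraries than in all 3 Y-linked ones and 5 were lower (Pola1, Pole, Rfc1, Clspn, Chaf1a), with a median ratio of 1.28. In ERY-I 29 were higher and 0 lower, with a median ratio of 1.46, and in ERY-V 0 were higher and 12 lower, with a median ratio of 0.472. These counts were made for the members only. Over all genes, too, pairs with 1 library of each set differed widely (chi-square per degree of freedom 72.1 to 228). The 9 neutrophil markers summed to 13619 to 14004 CPM in the Y-linked ERY-I libraries and to 0.409 to 1260 in the others, and their part in these differences was not tested.

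**Figure D1:**
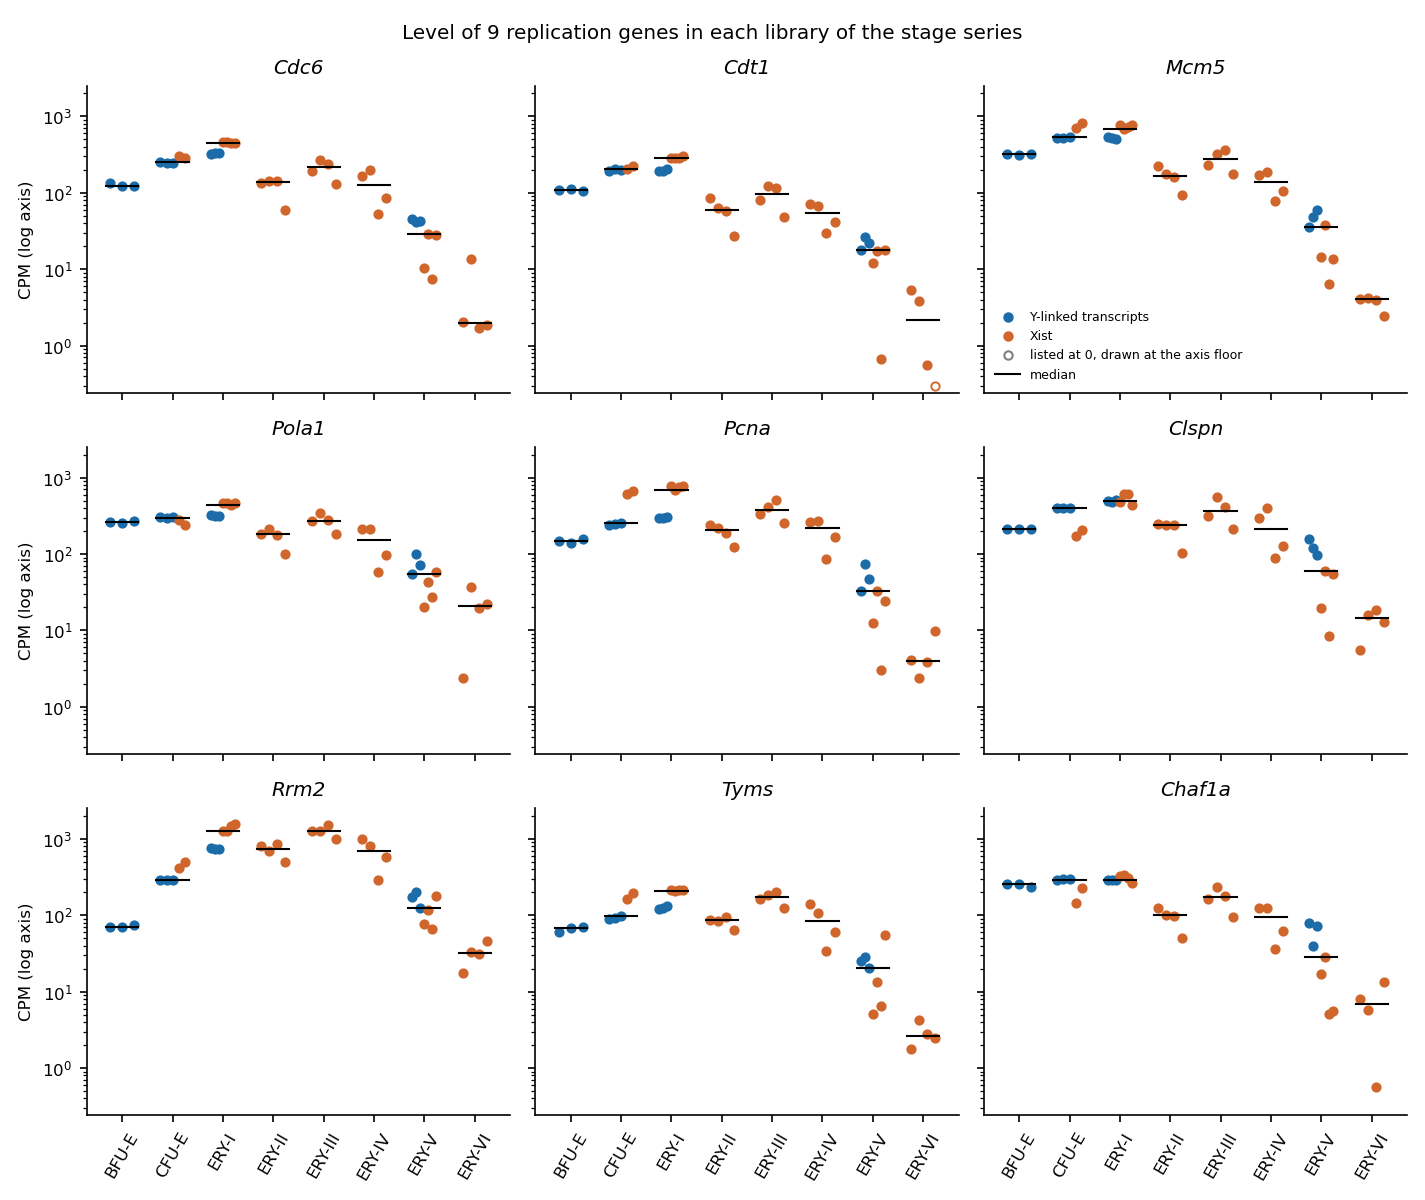
CPM on a log axis of 9 members in each of the 38 stage libraries, with 1 panel per gene, points coloured by library set and a bar at each stage's median. Rrm2 climbs from BFU-E to ERY-I by more than the other genes, all 9 are lowest in ERY-VI, and open symbols at the axis floor are listed at 0.

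Per length of transcript the order of the members changed at the proerythroblast stage. In BFU-E the highest levels in CPM per kilobase of exon (RPKM) were those of the helicase subunits Mcm3 (192), Mcm6 (186) and Mcm7 (146), and Rrm2 ranked 25 of 37. In CFU-E Rrm2 ranked 11, and from ERY-I to ERY-VI it ranked 1 in every stage, at a median RPKM of 576 in ERY-I and 579 in ERY-III. The 2 subunits of ribonucleotide reductase therefore differed in course. The Rrm2 to Rrm1 ratio of RPKM values was 0.269 to 0.270 in BFU-E, 0.600 to 0.698 in CFU-E and 1.42 to 1.83 in ERY-I. It was 2.29 to 3.11 in ERY-II, 2.63 to 3.01 in ERY-III and 2.87 to 3.38 in ERY-IV. The first 4 stages had separate ranges, while ERY-III and ERY-IV overlapped ERY-II. In ERY-V (2.08 to 14.4 with a median of 3.50) and ERY-VI (2.24 to 7.16 with a median of 3.45) the ratio rests on few counts. Such a ratio within a library does not depend on scaling and shows unequal change only.

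The 6 MCM subunits, which form 1 ring, stayed close to each other: the highest median RPKM among them was 1.61 to 2.06 times the lowest in every stage from BFU-E to ERY-V and 4.09 times in ERY-VI. The clamp and the catalytic subunit of polymerase delta, which it tethers, moved apart up to ERY-IV. The Pcna to Pold1 ratio was 1.52 to 1.70 in BFU-E, 3.09 to 9.998 in CFU-E, 4.70 to 16.7 in ERY-I and 20.5 to 77.8 in ERY-IV, where the lowest Pold1 count was 10. It was 5.58 to 22.3 with a median of 8.81 in ERY-V and 2.65 to 15.9 with a median of 5.69 in ERY-VI, each over the libraries with a Pold1 count. In WT of the knockout series the Rrm2 to Rrm1 ratio was 0.298 to 0.333 in BFU-E, 0.646 to 0.666 in CFU-E, 1.43 to 1.46 in ERY-I-II, 2.55 to 2.68 in ERY-III-VI and 2.54 to 2.70 in ERY-V-VI.

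**Figure D2:**
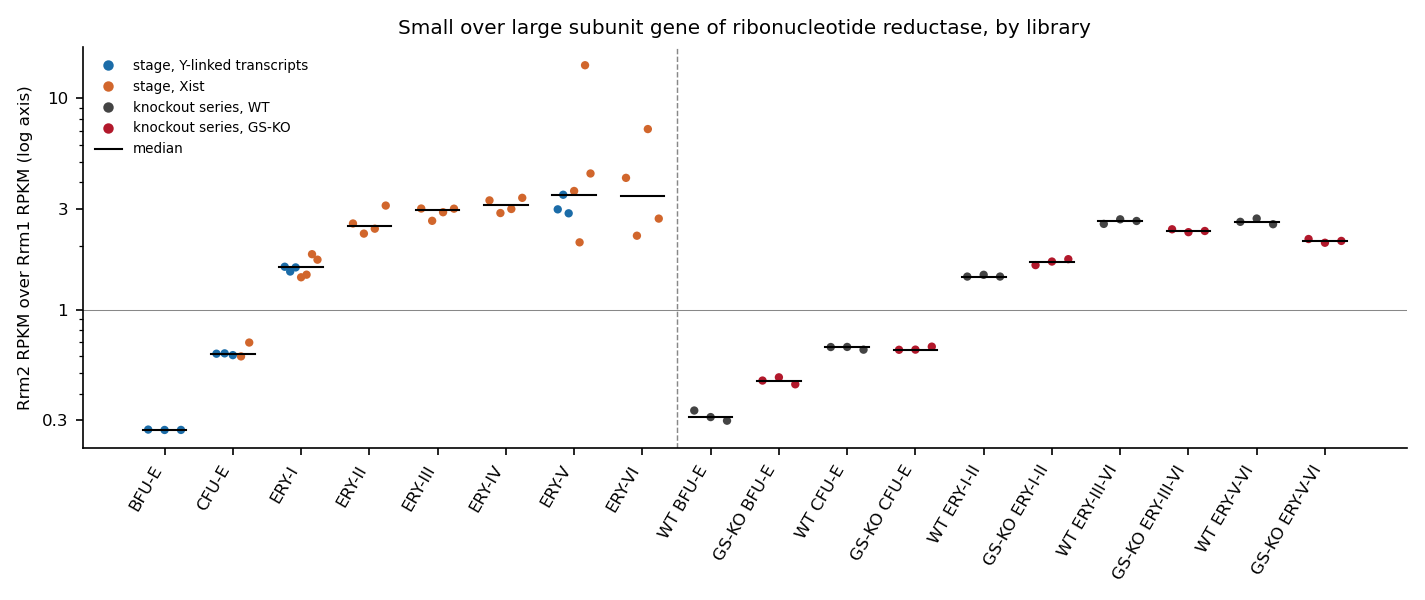
Ratio of Rrm2 to Rrm1 RPKM in each library on a log axis, for the 8 stages and for WT and GS-KO of the 5 gates. The ratio rises from 0.269 to 0.270 in BFU-E to 1.42 to 1.83 in ERY-I, and the WT libraries of the knockout series run from 0.298 to 0.333 in BFU-E to 2.55 to 2.68 in ERY-III-VI.

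From BFU-E to CFU-E most replication genes rose, in every functional group. Of the 37 members 28 were called higher and 0 lower, where edgeR called 18.2% of 10807 genes higher and 19.1% lower, and the median log2 fold change was 0.90 against -0.01 over all genes. All 4 licensing, 6 MCM and 4 activation factors rose, as did all 3 genes of nucleotide supply. Called as well were 3 of 6 polymerase and primase genes, 4 of 6 clamp and loader genes, 2 of 3 of single-strand binding and checkpoint, Fen1 of the flap and ligation genes and Chaf1b of chromatin assembly. The groups did not overlap in CPM for 27 members that were higher in CFU-E, where 19.1% of all genes were in that position, and for Pold1, which was lower (33.2% of all genes). Rrm2 had the largest change, from 71.9 ± 2.63 to 359 ± 96.6 CPM (SD), a log2 fold change of 2.47 ± 0.27 with an edgeR adjusted p of 2.93e-04. Pcna rose by 1.60 ± 0.45 (edgeR adjusted p = 0.0226), Gins2 by 1.33 ± 0.31 (0.0108), Prim2, the large primase subunit, by 1.26 ± 0.33 (0.0161) and Orc1, the largest subunit of the origin recognition complex, by 1.25 ± 0.20 (0.00173).

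Among the other landmark genes, Cdc6 rose by 1.24 ± 0.14, Mcm5 by 1.12 ± 0.23, Tyms by 1.11 ± 0.33 and Cdt1 by 1.07 ± 0.12. Chaf1b, a subunit of the histone chaperone that follows the fork, rose by 0.95 ± 0.22, Rpa2 of the single-strand binding complex by 0.88 ± 0.18 and the flap endonuclease Fen1 by 0.87 ± 0.17. Pola1 (0.25 ± 0.10), Clspn (0.68 ± 0.27) and Chaf1a (0.13 ± 0.20) were not called, nor were Pold1, Pole, Rfc1, Rfc2, Lig1 and Ung. Within the Y-linked libraries, 3 against 3, edgeR called 34 members higher and 2 lower, where it called 33% and 34.5% of all genes. Leaving out BFU-E replicate 1 or 2 left 16 members called and leaving out replicate 3 left 18, and with all groups in 1 fit 2 were called. Summing the Y-linked libraries of a gate to 1 library, which leaves BFU-E with 1, left 0 called by edgeR.

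From CFU-E to ERY-I the rise continued for fewer members. In ERY-I 14 were called higher and 0 lower (edgeR called 46.4% of 10460 genes, 25.4% higher and 20.9% lower), with a median log2 fold change of 0.57 against 0.05 over all genes. In CPM 5 members did not overlap and were higher (Cdc6, Pola1, Clspn, Lig1, Rrm2), where 9.78% of all genes did so. Rfc5 and Ung lay lower without overlap, where 23.1% of all genes did so. Rrm2 went from 359 ± 96.6 to 1115 ± 361 CPM, a log2 fold change of 2.07 ± 0.36 (edgeR adjusted p = 5.54e-04). Lig1, which seals the nicks of the lagging strand, went from 548 ± 111 to 945 ± 208 CPM, or 1.22 ± 0.26 (0.00225). Orc1 rose by 1.24 ± 0.28, Clspn by 1.13 ± 0.24, Cdc6 by 0.99 ± 0.21, Rfc1 by 0.92 ± 0.27, Pola1 by 0.91 ± 0.21, Tyms by 0.86 ± 0.32, Mcm2 by 0.77 ± 0.24, Cdt1 by 0.70 ± 0.23, Chaf1a by 0.66 ± 0.18 and Cdc45 by 0.65 ± 0.23. Mcm4 and Rpa1 were also called, and Mcm5 (0.47 ± 0.25) and Pcna (0.89 ± 0.46) were not.

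The count in ERY-I depended on the library sets, the scaling and the fit. With all groups in 1 fit edgeR called 5 members, all higher, and with the library set as a term 25 higher and 3 lower. Within the Y-linked libraries edgeR called 20 members higher and 9 lower (41.1% and 38.1% of all genes), and within the Xist libraries 22 higher and 1 lower (22.9% and 19.4%). Rrm2 was higher in both, by 1.47 and 2.06 on the log2 scale, while Rfc1 differed by 0.18 and 1.92. Scaling by library totals moved the median of all genes to -0.30 and that of the members to 0.16, with 7 called higher and 4 lower, where TMM gave 0 lower. The shares of all genes in the main fit are no background for the counts with all groups, the set term or library totals.

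**Figure D3:**
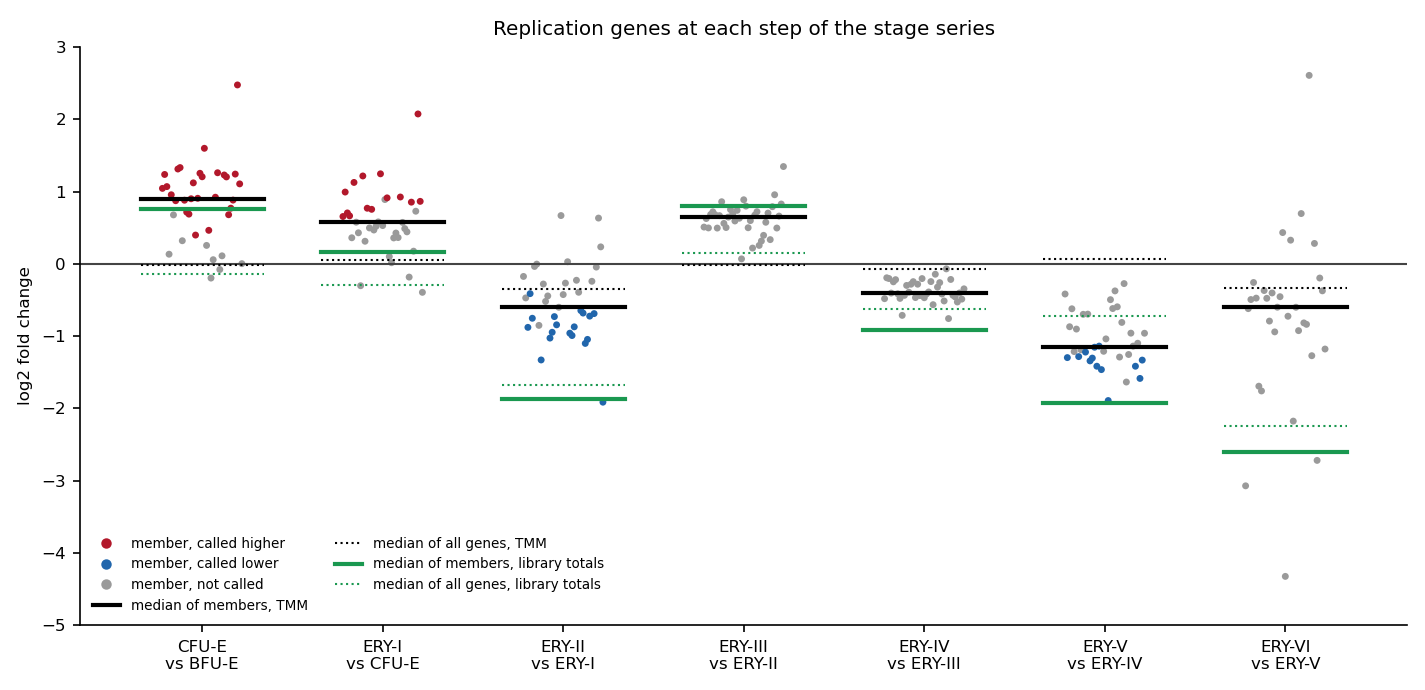
Log2 fold change of each tested member in the 7 steps between neighbouring stages, coloured by edgeR call, with bars at the members' median under TMM and under library totals and dotted lines at the medians of all genes. Members are mostly above 0 in the first 2 steps, below 0 in ERY-II against ERY-I, above 0 in ERY-III against ERY-II and below 0 afterwards.

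From ERY-I to ERY-II the members fell or were not called, and all 5 genes of the clamp loader were among those that fell. Of 37 members 18 were called lower and 0 higher, where edgeR called 25.1% of 10327 genes lower and 20.2% higher, and their median log2 fold change was -0.60 against -0.35 over all genes. All 5 RFC genes were lower, as were 4 MCM genes (Mcm3, Mcm4, Mcm5, Mcm6), both chromatin assembly genes, Pola2, Pold1, Pole, Gins2, Rpa2, Cdt1 and Ung. In CPM 35 members were lower without overlap, a position that 53.6% of all genes shared, and 0 were higher (2.91%). Ung measured 14.9 to 31.0 with a median of 19.9 CPM in ERY-I and 1.97, 3.67, 2.19 and 1.05 in ERY-II, a log2 fold change of -1.92 ± 0.29 (edgeR adjusted p = 3.76e-04). Gins2 fell by 1.33 ± 0.26, Rfc3 by 1.10 ± 0.34, Mcm3 by 1.03 ± 0.24, Pold1 by 0.99 ± 0.23 and Cdt1 by 0.88 ± 0.26 on the log2 scale. Chaf1b (-0.75 ± 0.27), Mcm5 (-0.73 ± 0.24), Rpa2 (-0.69 ± 0.24) and Chaf1a (-0.41 ± 0.15) were lower by less.

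None of the 3 nucleotide supply genes was called: Rrm2 had a log2 fold change of 0.63 ± 0.33 (edgeR adjusted p = 0.143) and Tyms one of 0.23 ± 0.28, and with library totals these were -0.65 and -1.08. Pola1 changed sign as well, from 0.03 ± 0.23 with TMM to -1.25 with library totals, and Cdc6 (-0.47 ± 0.24), Pcna (-0.27 ± 0.40) and Clspn (-0.04 ± 0.19) were not called either. Library totals moved the median of all genes to -1.68 and that of the members to -1.87, and 36 members were then lower, at a scaling that moved all genes down as well. Leaving out ERY-II replicate 4 left 11 called, and with all groups in 1 fit 3 were called, all lower. With the replicate number as a block 5 were lower and 3 higher. That block joins Y-linked ERY-I to Xist ERY-II libraries for replicates 1, 2 and 3 and omits ERY-I replicates 5, 6 and 7. Same-numbered libraries correlated at 0.42, 0.74, -0.62 and 0.24, so the block is not a paired result here. Within the Xist libraries 28 were called (all lower, where 23.8% of all genes were).

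From ERY-II to ERY-III every member had a positive log2 fold change, yet edgeR called 0 of 37 in either direction, where it called 0.185% of 7574 genes, all higher. At an unadjusted p below 0.05 the count was 30, all higher, and DESeq2 called 19 higher and 0 lower. The share of 0.185% belongs to the adjusted edgeR call and is no background for these counts. The median of the members was 0.65 and that of all genes -0.02. In CPM 9 members were higher without overlap (Orc6, Gins1, Prim1, Pcna, Rfc4, Rpa1, Rpa2, Rrm2, Tyms), where 3.95% of all genes were, and 0 were lower (1.27%). Rrm2 went from 712 ± 155 to 1262 ± 210.1 CPM (0.66 ± 0.16, edgeR adjusted p = 0.134), Tyms from 82.7 ± 12.8 to 167 ± 33.6 CPM (0.83 ± 0.16, 0.0749) and Pcna from 195 ± 52.1 to 379 ± 108 CPM (0.80 ± 0.17, 0.111). Of the other landmarks, Cdt1 was at 0.50, Clspn at 0.68, Chaf1a at 0.68, Cdc6 at 0.63, Pola1 at 0.50 and Mcm5 at 0.59 ± 0.18.

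Libraries with the same replicate number deviated together in these 2 stages (correlations 0.60 to 0.78 over 4 pairs), and the fit above had no term for it. With the replicate number as a block edgeR called 29 members higher and 0 lower, against 4.86% and 5.41% of all genes, with a median of 0.64. The same-numbered ERY-III library had the higher CPM in 4 of 4 pairs for 29 members, in 3 of 4 for 7 and in 2 of 4 for Orc1. Pairs were not counted over all genes, whose median log2 fold change with library totals was 0.15.

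From ERY-III to ERY-IV the direction turned, and no member was called. All 37 log2 fold changes were negative, with a median of -0.40 against -0.07 over all genes, and edgeR called 0 members (3.29% of 7238 genes lower and 10.3% higher). The count at an unadjusted p below 0.05 was 4, all lower, and DESeq2 called 0. In CPM 6 members were lower without overlap (Orc1, Rfc2, Rfc4, Rfc5, Lig1, Rrm1), where 21.7% of all genes were, and 0 were higher (4.03%). Rrm2 went from 1262 ± 210.1 to 671 ± 304 CPM (-0.40 ± 0.24, edgeR adjusted p = 0.294) and Mcm5 from 274 ± 83.4 to 135 ± 52.9 CPM (-0.47 ± 0.19, 0.142). The remaining landmarks were Tyms at -0.49, Pcna -0.42, Chaf1a -0.41, Pola1 -0.39, Clspn -0.22, Cdt1 -0.20 and Cdc6 -0.19. Same-numbered libraries were lower in ERY-IV in 4 of 4 pairs for 32 members, and the block gave 0 calls. The pairs were compared in CPM and were not counted over all genes. With library totals the median log2 fold change of all genes was -0.63.

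From ERY-IV to ERY-V, the step to reticulocytes, the helicase fell together. Of 36 members tested (Ung did not pass the count filter) 13 were called lower and 0 higher, where edgeR called 8.83% of 6990 genes, 2.33% lower and 6.49% higher, and the median log2 fold change was -1.15 against 0.06 over all genes. The 13 were all 6 MCM genes, Cdc6, Pcna, Rpa1, Fen1, Lig1, Rrm1 and Rrm2. In CPM 17 members were lower without overlap, where 11.3% of all genes were. Pcna went from 197 ± 88.5 to 32.6 ± 23.6 CPM, a log2 fold change of -1.89 ± 0.35 (edgeR adjusted p = 0.00563), and Rrm1, the large reductase subunit, went from 389.5 ± 175 to 73.7 ± 37.7 CPM, or -1.59 ± 0.32 (0.00935). Mcm7 was at -1.47 ± 0.31, Mcm5 at -1.42 ± 0.28, Rpa1 at -1.42 ± 0.29, Rrm2 at -1.33 ± 0.29, Cdc6 at -1.30 ± 0.28 and Fen1 at -1.29 ± 0.27. Tyms (-0.96 ± 0.49), Clspn (-0.90 ± 0.36), Cdt1 (-0.87 ± 0.44), Chaf1a (-0.62 ± 0.42) and Pola1 (-0.50 ± 0.30) were not called. Leaving out ERY-IV replicate 4 lowered the count to 8, and with all groups in 1 fit it was 31. The share of 8.83% is no background for the fit with all groups. All ERY-IV libraries carried Xist, while 3 ERY-V libraries carried Y-linked transcripts, so this step also compares unlike library sets. Within ERY-V the members' median ratio of Xist to Y-linked libraries was 0.472.

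In ERY-VI the members held 332 to 617 counts per library in all, and 5 to 11 of the 37 genes had none. Gins1 and Chaf1b were at 0 in all 4 libraries, which allows up to 3 counts in each, or 0.883 to 1.84 CPM. Of 31 members tested against ERY-V, edgeR called 0 (of 5030 genes 7.83%, 4.51% lower and 3.32% higher), with 5 lower and 1 higher at an unadjusted p below 0.05, and DESeq2 called 4 lower and 1 higher. The members' median log2 fold change was -0.60 against -0.34 over all genes. With library totals these medians were -2.60 and -2.24 and 21 members were lower, at a scaling that moved all genes down as well. In CPM 10 members were lower without overlap, where 23.1% of all genes were. Among the landmarks, Tyms was at -1.18 ± 0.75, Mcm5 at -0.94 ± 0.60, Pcna at -0.73 ± 0.62, Cdc6 at -0.62 ± 0.67, Rrm2 at -0.37 ± 0.34 and Pola1 at 0.33 ± 0.49. With all groups in 1 fit 19 members were lower and 1 higher. The share of 7.83% is that of the main fit and is no background for the counts with DESeq2, library totals or all groups. All ERY-VI libraries carried Xist, so the library sets are unlike in this step too.

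The WT libraries of the knockout series were compared step by step in the same way. Neighbouring steps share the libraries of the gate between them. From BFU-E to CFU-E 34 members were called higher and 1 lower (edgeR called 34.5% of 10826 genes higher and 36% lower), with a median log2 fold change of 0.60. The exception was Rfc2, a clamp loader subunit, at -0.15 ± 0.04 (edgeR adjusted p = 0.00248). Rrm2 led the called members at 1.84 ± 0.04, from 89.3, 84.8 and 82.8 CPM to 284, 289 and 279.7. Clspn (1.08 ± 0.03) and Chaf1a (0.62 ± 0.03) were called here. From CFU-E to ERY-I-II all 37 were called higher (39.9% of 10197 genes higher and 41.9% lower), with a median of 1.12. Rrm2 rose by 2.27 ± 0.03 to 994, 1029.5 and 1008 CPM, Cdc6 by 1.63 ± 0.03, Pcna by 1.59 ± 0.03, Lig1 by 1.58 ± 0.02, Mcm5 by 1.12 ± 0.03 and Pola1 by 1.11 ± 0.03. With library totals 33 were higher and 2 lower, Pold1, Rfc5 and Ung taking the other sign, and the median of all genes moved to -0.47.

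From WT ERY-I-II to WT ERY-III-VI the functional groups parted on the TMM scale. There 16 members were called higher and 14 lower (35.3% and 38.1% of 9503 genes), with a median log2 fold change of 0.06. Nucleotide supply rose as a group with TMM (Rrm1 and Tyms turned with library totals), with Rrm2 at 0.97 ± 0.02 (edgeR adjusted p = 2.11e-27), whereas 5 of the 6 MCM genes, 4 of the 5 RFC genes (Rfc2 to Rfc5) and Pold1 (-0.45 ± 0.06) were lower. With library totals 1 was higher and 35 lower and the median of all genes moved to -0.78. Of the 16 called higher 15 turned negative with library totals, namely Clspn (0.66 ± 0.03), Pcna (0.47 ± 0.03), Tyms (0.45 ± 0.05), Pola1 (0.42 ± 0.04), Orc6 (0.34 ± 0.06), Fen1 (0.31 ± 0.03), Chaf1a (0.28 ± 0.03), Cdc6 (0.25 ± 0.03), Mcm2 (0.09 ± 0.02), Orc1, Prim1, Pole, Rpa1, Lig1 and Rrm1. Rrm2 kept its direction, at 0.25, and was the 1 member higher in CPM without overlap (14.7% of all genes), while the other 36 were lower (69.6%). Rfc4 (-0.39 ± 0.06), Gins1 (-0.38 ± 0.09), Mcm5 (-0.23 ± 0.03) and Cdt1 (-0.10 ± 0.04) were lower under both.

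From WT ERY-III-VI to WT ERY-V-VI 30 members were called lower and 0 higher (12.9% and 18.4% of 8025 genes), with a median log2 fold change of -0.57. Pcna was at -0.81 ± 0.06 (edgeR adjusted p = 2.89e-07), Mcm5 at -0.76 ± 0.08, Lig1 at -0.75 ± 0.06, Rrm2 at -0.60 ± 0.04, Clspn at -0.40 ± 0.05 and Cdc6 at -0.39 ± 0.08. Chaf1a (-0.28 ± 0.13, 0.119) was among the 7 not called. In CPM all 37 were lower without overlap, as were 73.2% of all genes.

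Glutamine synthetase makes glutamine, whose amide nitrogen enters purine and pyrimidine synthesis, and the GS-KO and WT libraries let the replication genes be compared gate by gate. The GS-KO libraries also differed in transcripts of markers of other cell types. All 9 neutrophil markers were higher in all 3 GS-KO than in all 3 WT libraries in each of the 5 gates, and none was at 0 throughout a group. They summed in BFU-E to 26.7 to 36.4 CPM in WT and 7024 to 7102 in GS-KO, in CFU-E to 25.9 to 29.0 and 4314 to 4388, in ERY-I-II to 108 to 116 and 6183 to 6284, in ERY-III-VI to 252 to 255 and 9923 to 10002 and in ERY-V-VI to 608 to 654 and 13362 to 13528. The 13 monocyte and macrophage markers were higher in GS-KO for all 13 in the first 4 gates and for 11 in ERY-V-VI, with Emr1 and Ly86 at 0 in all WT CFU-E libraries, and all 10 B cell markers were higher in every gate except ERY-I-II (9). The 10 erythroid markers summed in BFU-E to 844 to 855 CPM in WT and 1823 to 1866 in GS-KO, in ERY-I-II to 24898 to 25001 CPM in WT and 42376 to 42610.5 in GS-KO and in ERY-V-VI to 198384 to 201048 and 90777 to 91887. Singly they went both ways. In BFU-E 7 were higher and 3 lower in all GS-KO than in all WT libraries. The counts were 6 and 4 in CFU-E, 6 and 3 in ERY-I-II, 3 and 7 in ERY-III-VI and 3 and 7 in ERY-V-VI. The part of these marker differences in the fold changes below was not tested.

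In BFU-E 4 members were called higher in GS-KO and 3 lower, against 15.4% and 8.59% of 11356 genes, and the median log2 fold change was 0.00. Rrm2 measured 89.3, 84.8 and 82.8 CPM in WT and 124, 129.7 and 120.4 in GS-KO, without overlap, a log2 fold change of 0.56 ± 0.05 (edgeR adjusted p = 3.05e-12). Clspn (0.16 ± 0.04), Chaf1a (0.11 ± 0.04) and Rfc1 (0.10 ± 0.04) were higher by far less. Lower were Mcm10, which helps start the helicase (-0.16 ± 0.05), Rfc5 (-0.16 ± 0.06) and Pola2 (-0.14 ± 0.05). Without overlap in CPM 4 were higher (19.4% of all genes) and 6 lower (17.7%). Cdt1 (-0.11), Tyms (-0.07), Mcm5 (-0.05), Pcna (0.03), Pola1 (0.06) and Cdc6 (0.01) were not called. Leaving out WT replicate 2 left 3 called, and leaving out WT replicate 3 or GS-KO replicate 1 left 4.

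In CFU-E 26 members were lower in GS-KO and 0 higher (11.5% and 17.9% of 10859 genes), by small amounts, with a median log2 fold change of -0.13 against 0.00 over all genes. Cdc6 measured 266, 258 and 265 CPM in WT and 232, 222 and 223 in GS-KO (-0.23 ± 0.03, edgeR adjusted p = 2.43e-07). Mcm5 measured 534, 548 and 508 and 492, 487 and 499 CPM (-0.11 ± 0.03, 0.00196). Both genes were lower in each GS-KO library than in each WT library, as were 31 members in all (17.2% of all genes), and 0 were higher (22.6%). Rfc4 had the lowest log2 fold change, -0.26 ± 0.05, with Mcm4 and Gins2 at -0.20 and -0.20, Prim2 at -0.19, Cdt1 at -0.18, Rrm2 at -0.16, Clspn at -0.15, Fen1 at -0.14, Pcna at -0.10 and Pola1 at -0.09. All 6 MCM genes were called, and Tyms (-0.08) and Chaf1a (-0.04) were not.

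In ERY-I-II 31 members were lower in GS-KO and 0 higher (of 9954 genes 40.4% were called, 17.5% lower and 22.9% higher), with a median log2 fold change of -0.23. Mcm5 measured 840.5, 873 and 840.3 CPM in WT and 659, 635 and 647 in GS-KO (-0.28 ± 0.03, edgeR adjusted p = 8.12e-16). Pcna measured 558, 574 and 577 and 475, 427 and 455 CPM (-0.22 ± 0.03, 4.45e-09). In CPM 36 members were lower without overlap, where 35.8% of all genes were. The lowest values were those of Rfc4 (-0.44 ± 0.06), Ung (-0.36 ± 0.12), Chaf1b (-0.35 ± 0.06) and Prim1, the catalytic primase subunit (-0.29 ± 0.05). Rpa2 was at -0.26, Orc6 at -0.25, Cdc6 at -0.24, Cdt1 at -0.23, Gins2 at -0.23, Rrm1 at -0.21, Tyms at -0.19 and Pola1 at -0.11. Rrm2 (0.01 ± 0.02, 0.845), Clspn (-0.02 ± 0.03), Chaf1a (-0.06 ± 0.03), Cdc45, Gins1 and Pole were not called, and with library totals all 37 were lower, Rrm2 at -0.11, while the median of all genes moved to -0.13. The Rrm2 to Rrm1 ratio was 1.43 to 1.46 in WT and 1.62 to 1.73 in GS-KO, without overlap.

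In ERY-III-VI 31 members were again lower and 0 higher (24.5% and 31.4% of 9981 genes), with a median log2 fold change of -0.36 against 0.05 over all genes. Rrm2 measured 1187, 1196 and 1229 CPM in WT and 959.7, 960.1 and 946 in GS-KO (-0.49 ± 0.03, edgeR adjusted p = 3.89e-23). Pcna measured 488, 463 and 487 and 383, 383 and 367 CPM (-0.50 ± 0.03, 9.19e-19). Clspn measured 699, 677 and 682 and 598, 575 and 592 CPM (-0.38 ± 0.03, 2.88e-16). All 3 were lower without overlap, as were 30 members in all (15.8% of all genes). Ung was at -0.57 ± 0.17, Chaf1b at -0.50 ± 0.08, Rpa1 at -0.48 ± 0.04, Pola2 at -0.43 ± 0.06, Tyms at -0.43 ± 0.05, Orc6 at -0.39 ± 0.07 and Chaf1a at -0.39 ± 0.04. Mcm10 (-0.37), Cdc6 (-0.37), Mcm4 (-0.36), Mcm5 (-0.33), Pola1 (-0.33) and Cdt1 (-0.30) were lower too, and Cdc45, Gins1, Gins2, Pold1, Rfc3 and Rfc5 were not called. With library totals the medians were -0.19 for the members and 0.21 for all genes.

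In ERY-V-VI the direction depended on the scaling. In CPM 36 of 37 members were higher in GS-KO without overlap, Ung being the exception, but 80.3% of all genes were too. Summed, the members reached 3528 to 3698 CPM in WT and 8014 to 8211 in GS-KO. Globin genes took 19.6% to 19.8% of counts in WT and 7.69% to 7.81% in GS-KO, and the 5 markers of erythroid progenitors summed to 6.31 to 12.8 and 115 to 123 CPM. With TMM, 8 members were called lower and Rfc1 higher (20.5% and 22.4% of 9403 genes), and the median log2 fold change was -0.14 against 0.15 over all genes. With library totals 36 were called higher and 0 lower, with medians of 1.16 and 1.44. Cdc6 measured 142, 136 and 169 CPM in WT and 255, 283 and 249.6 in GS-KO, a log2 fold change of -0.48 ± 0.09 with TMM (edgeR adjusted p = 5.39e-04) and 0.82 with library totals. The other genes called lower with TMM, Clspn (-0.47 ± 0.06), Chaf1a (-0.47 ± 0.13), Pola2 (-0.47 ± 0.15), Tyms (-0.42 ± 0.11), Rrm2 (-0.36 ± 0.05), Fen1 (-0.35 ± 0.08) and Pole, were likewise higher with library totals, and Rfc1 was higher with both (0.28 ± 0.10 and 1.58). Relative to the median of all genes the members' median was lower under both scalings. A change of scaling shifts every gene by about the same amount, so this holding under both is no added support. Mcm5 (0.14 ± 0.09), Pcna (-0.14 ± 0.08), Cdt1 (-0.17 ± 0.15) and Pola1 (-0.12 ± 0.08) were not called with TMM.

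**Figure D4:**
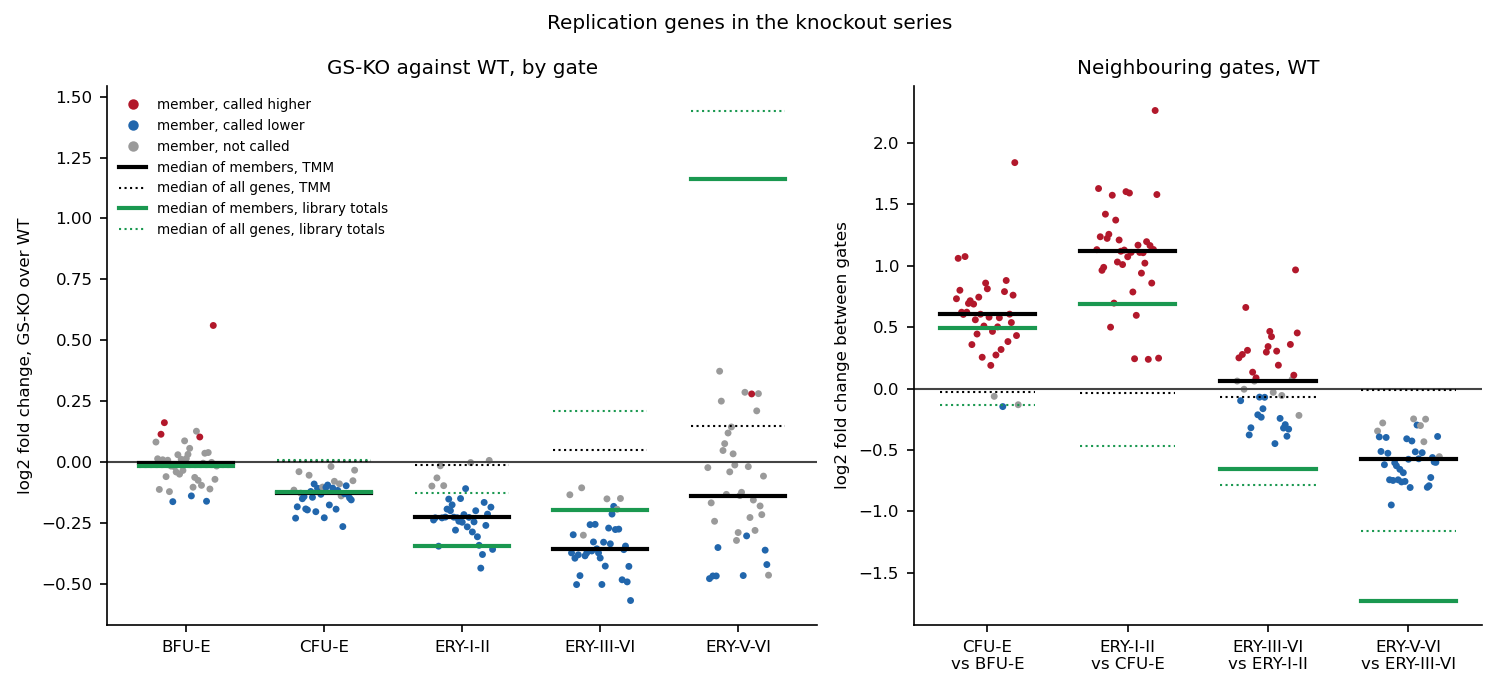
Log2 fold change of each member for GS-KO against WT in 5 gates (left) and for the 4 steps between WT gates (right), coloured by edgeR call, with bars at the members' median under TMM and under library totals and dotted lines at the medians of all genes. Members lie around 0 in BFU-E and mostly below 0 in CFU-E, ERY-I-II and ERY-III-VI, and in ERY-V-VI the bars of both scalings lie on opposite sides of 0.

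The genotype difference itself varied between gates. A test of the interaction of genotype and gate over all 30 libraries called 32 of the 37 members, where edgeR called 61.2% of 12051 genes. The smallest p-values were those of Rrm2 (F = 149, edgeR adjusted p = 2.27e-26), Clspn (F = 54.4, 7.70e-17), Pcna (F = 39.2, 4.10e-14), Rpa1 (F = 37.3, 1.04e-13) and Lig1 (F = 36.8, 1.33e-13). For Rrm2 the log2 fold change of GS-KO over WT ran from 0.56 in BFU-E through -0.16 in CFU-E and 0.01 in ERY-I-II to -0.49 in ERY-III-VI and -0.36 in ERY-V-VI, the last being 0.94 with library totals. Cdc45, Gins1, Gins2, Prim2 and Rfc3 were not called. The Rrm2 to Rrm1 ratio was higher in GS-KO in BFU-E (0.443 to 0.478 against 0.298 to 0.333) and lower in ERY-III-VI (2.33 to 2.40 against 2.55 to 2.68) and ERY-V-VI (2.07 to 2.16 against 2.54 to 2.70), without overlap, and it overlapped in CFU-E.

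**Figure D5:**
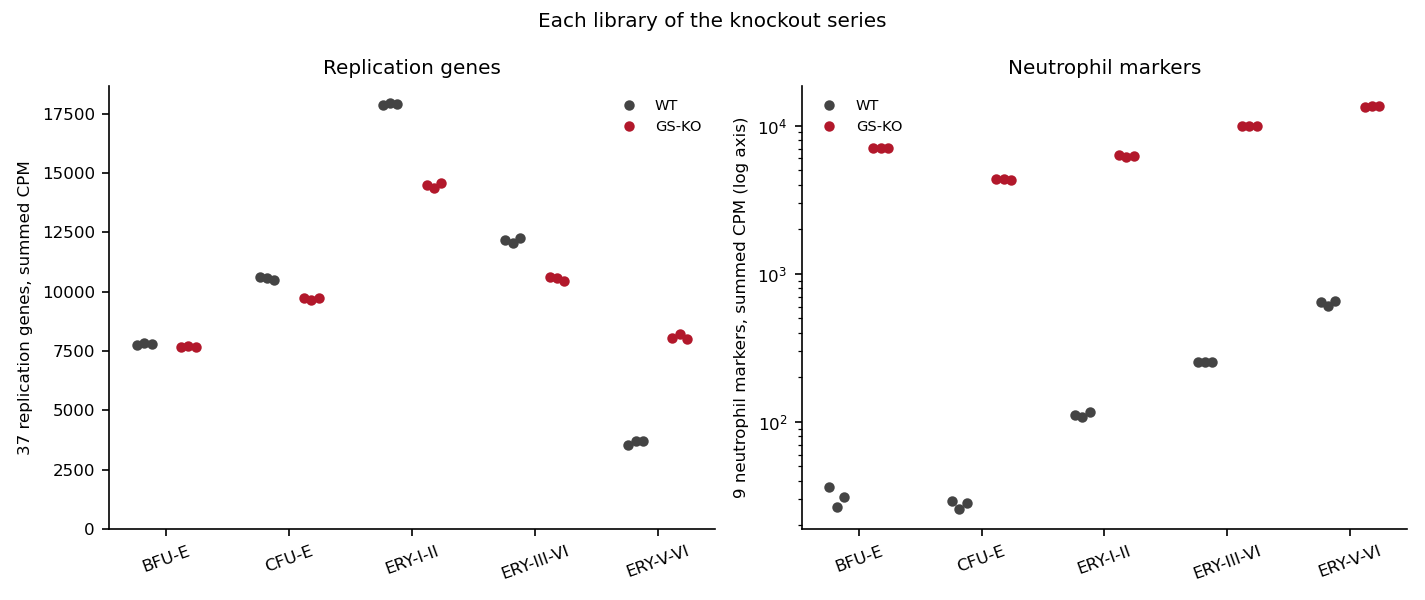
Summed CPM of the 37 members (linear axis) and of the 9 neutrophil markers (log axis) in each WT and GS-KO library of the 5 gates. In BFU-E, CFU-E, ERY-I-II and ERY-III-VI the members' sum is lower in every GS-KO library than in every WT library and in ERY-V-VI it is higher, while the neutrophil sum is higher in GS-KO in all 5 gates.

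The other genes of replication, a list of 59 with further subunits, nucleotide enzymes, cyclins and E2F factors, were set beside the members, as was a list of 30 mitosis genes. Top2a is on both lists. From BFU-E to CFU-E 34 of 59 other replication genes rose and 2 fell (18.2% and 19.1% of all genes), led by Ccne1 (2.73 ± 0.39) and Ccne2 (2.41 ± 0.49), the cyclins of S phase entry, Donson (1.84 ± 0.33) and E2f2 (1.79 ± 0.42), and 18 of 30 mitosis genes rose. From CFU-E to ERY-I 27 rose and 3 fell (25.4% and 20.9% of all genes). E2f2, an E2F factor, went from 58.8 ± 29.5 to 689 ± 239.7 CPM (3.99 ± 0.46, edgeR adjusted p = 5.15e-05), E2f7 and E2f8, repressors of the same family, rose by 2.64 ± 0.24 and 1.95 ± 0.27, and Dctd, a deaminase of deoxycytidylate, was at -1.95 ± 0.51. Mitosis genes and the members parted at ERY-II. There 29 of 30 mitosis genes were called higher and 0 lower with TMM, with a median of 1.38, although their summed CPM overlapped (20611 to 32682 in ERY-I and 15396 to 44348 in ERY-II), while the other replication genes divided into 10 higher and 16 lower (20.2% and 25.1% of all genes), among them E2f2 (2.23 ± 0.36), Top1 (1.505 ± 0.28), Dut (-1.39 ± 0.22), which degrades dUTP, and Mcm8 (-1.86 ± 0.32). In the step to ERY-III 1 other replication gene, Chtf18 of the alternative clamp loader, rose (0.90 ± 0.14), and 0 mitosis genes were called, where 0.185% of all genes were.

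From ERY-III to ERY-IV, where 3.29% of all genes fell and 10.3% rose, 19 of 30 mitosis genes fell and 0 rose, and of 56 other replication genes 4 fell and Top1 rose (0.95 ± 0.23). Top2a (-1.08 ± 0.28), Dbf4, the activator of the CDC7 kinase (-0.96 ± 0.20), and Ticrr (-0.89 ± 0.19) were among those that fell. From ERY-IV to ERY-V 11 of 56 other replication genes and 8 mitosis genes fell and 1 of each rose (2.33% and 6.49% of all genes), with Asf1b, a histone chaperone, at -2.18 ± 0.38, Tipin at -2.09 ± 0.44, Ccne2 at -1.87 ± 0.36 and Ccne1 at -1.72 ± 0.48. From ERY-V to ERY-VI 4 of 45 fell (4.51% of all genes), among them Usp1 (-2.97 ± 0.87), while Dna2 and Cdk2, with means of 10.03 and 9.61 CPM in ERY-V, had 0 counts in all ERY-VI libraries.

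Between genotypes the other replication genes were called, with TMM, 8 higher and 2 lower of 59 in BFU-E (15.4% and 8.59% of all genes) and 1 and 25 in CFU-E (17.9% and 11.5%). They were 3 and 22 of 58 in ERY-I-II (22.9% and 17.5%), 3 and 37 of 57 in ERY-III-VI (31.4% and 24.5%) and 2 and 17 of 57 in ERY-V-VI (22.4% and 20.5%), so the counts of higher genes lay below those shares in every gate, as did those of lower genes in BFU-E. E2f2 measured 15.7 ± 1.21 CPM in WT BFU-E and 60.8 ± 6.14 in GS-KO BFU-E (SD, n = 3), a log2 fold change of 1.97 ± 0.10 (edgeR adjusted p = 6.68e-23). It was also higher in GS-KO in CFU-E (0.63 ± 0.08) and ERY-I-II (0.45 ± 0.02), and in ERY-V-VI it was lower (-2.08 ± 0.03), on the CPM scale too. E2f7 was higher in BFU-E (0.64 ± 0.12) and ERY-I-II (0.38 ± 0.08) and lower in ERY-III-VI (-0.70 ± 0.06) and ERY-V-VI (-1.06 ± 0.13), where its mean CPM was nonetheless higher in GS-KO. In BFU-E Ccne2 (0.51 ± 0.11) and Rrm2b, the alternative small reductase subunit (0.39 ± 0.14), were higher as well. Ccne1 (-0.25 ± 0.03), Dscc1 (-0.25 ± 0.07) and Donson (-0.22 ± 0.08) were lower in CFU-E, Rpa3 (-0.50 ± 0.13) and Orc2 (-0.37 ± 0.04) in ERY-I-II, and Pold2 (-0.57 ± 0.13), E2f8 (-0.56 ± 0.03) and Dck (-0.54 ± 0.04) in ERY-III-VI. Mitosis genes were called 13 higher and 0 lower of 30 in BFU-E, 1 and 13 in CFU-E, 11 and 8 in ERY-I-II, 0 and 30 in ERY-III-VI and 1 and 7 in ERY-V-VI, against the same shares of all genes.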

How the data were processed

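Total RNA libraries of mouse bone marrow, 38 of the stage series and 30 of the knockout series, were used from 2 deposited tables of raw read counts with the same 24059 gene symbols. Reads had been aligned with STAR 2.5.2b to mm10 and counted with HTSeq, per the submitters' processing notes, while neither annotation nor strand setting is given in the sources used here. The counts were used as deposited, and 0 columns were left unused. CPM was computed from library totals and RPKM from exon lengths of GENCODE M21, which held all 37 members. Every comparison was fitted alone, on its 2 groups, in edgeR 4.0.16 (R 4.3.3), with filterByExpr (minimum count 10, minimum total 15), TMM and the quasi-likelihood F test, Benjamini-Hochberg adjusted over all genes tested and called below 0.05. A standard error is |log2 fold change| / √F. The interaction of genotype and gate was tested with 4 degrees of freedom. Scripts were tested on simulated data. Alternatives were DESeq2 1.42.0, RLE factors, library totals, globin genes left out, other filters, all groups in 1 fit, a replicate block, the library sets, summed triplicates and each library left out.

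The members and gene lists were chosen with earlier results of these data known, as were the comparisons. In each comparison 9 landmark members were named (Mcm5, Cdc6, Cdt1, Pcna, Pola1, Rrm2, Tyms, Clspn, Chaf1a), with the called member of largest change per role and direction, up to 4 called genes of the other replication list whose mean reached 5 CPM, and the 5 smallest p-values of the interaction. Replicate numbers come from the labels, which do not say what they mark. Deviations of same-numbered libraries from their group means correlated at 0.31 to 0.44 in ERY-I against CFU-E (there the library sets run along the numbers too). They correlated at 0.60 to 0.78 in ERY-III against ERY-II and at 0.34 to 0.63 in ERY-IV against ERY-III. Even in these comparisons the main fits had no replicate block, which was an alternative only. The smallest step of a value is 1 count, so low levels in ERY-V and ERY-VI, which rest on few counts, are imprecise.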

Additional observations from a re-analysis of the deposited data

Results flagged for a closer look

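The groups of 4 to 10 libraries were tested for a single library far from the others, on each landmark's level and on the members' summed level. Of these 70 tests 3 met the criterion, where chance gives about 1 in 20. The tests share libraries and are not independent. Cdc6 in ERY-II replicate 4 was the lowest at 58.9 CPM, with a gap to the next library of 0.901 of the group's range. Clspn was lowest in the same library, at 103 CPM (0.943). Cdc6 in ERY-VI replicate 2 was the highest at 13.7 CPM (0.968).

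The genotype effect differed between gates for 32 of the 37 members by edgeR's interaction test, which called 61.2% of 12051 genes. The smallest adjusted p-values were 2.27e-26 for Rrm2, 7.70e-17 for Clspn, 4.10e-14 for Pcna, 1.04e-13 for Rpa1 and 1.33e-13 for Lig1. In CPM Rrm2 was higher in all 3 GS-KO than in all 3 WT libraries of BFU-E and of ERY-V-VI and lower in all 3 of CFU-E, of ERY-I-II and of ERY-III-VI. The neutrophil markers differed between genotypes in the same libraries, and their part was not tested.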

How the results depend on the processing

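Of 300 recomputed counts of called members 268 stayed within 1.5 times the first value and 32 did not. For CFU-E against BFU-E the counts outside were 2 with all groups in 1 fit and 0 with the triplicates summed, and leaving out 1 library gave 16 to 31. For ERY-I against CFU-E they were 5 with all groups, 29 and 23 within the Y-linked and Xist libraries and 28 with the set as a term. For ERY-II against ERY-I they were 36 with library totals, 3 with all groups, 8 with the replicate block and 28 within the Xist libraries, and leaving out 1 library gave 11 to 20. For ERY-III against ERY-II they were 19 with DESeq2 and 29 with the replicate block. For ERY-V against ERY-IV it was 31 with all groups, and 8 to 16 leaving out 1 library. For ERY-VI against ERY-V they were 5 with DESeq2, 1 with RLE factors, 21 with library totals, 1 with genes averaging 5 CPM or more and 20 with all groups, and 0 to 1 leaving out 1 library, with 1 without ERY-V replicate 6, ERY-VI replicate 3 or ERY-VI replicate 4. For GS-KO against WT it was 3 in BFU-E with DESeq2 (3 to 8 leaving out 1 library), and in ERY-V-VI 36 with library totals and 21 with all groups (6 to 10 leaving out 1 library). The cause was not tested.

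With library totals 73 of 585 log2 fold changes of members took the other sign, 26 in GS-KO against WT in ERY-V-VI, 18 in WT ERY-III-VI against ERY-I-II and 0 to 7 in each of the other comparisons. Of members named there, 23 changed sign with a call under TMM or totals, and no other setting did this for a named member. In ERY-II against ERY-I these were Pola1 (-1.25), Rrm2 (-0.65) and Tyms (-1.08), and in GS-KO against WT in ERY-I-II Rrm2 (-0.11). In ERY-V-VI they were Cdc6 (0.82), Cdt1 (1.13), Pola1 (1.17), Pola2 (0.83), Pcna (1.16), Clspn (0.83), Fen1 (0.95), Rrm2 (0.94), Tyms (0.88) and Chaf1a (0.83), and in WT ERY-III-VI against ERY-I-II Orc6 (-0.37), Cdc6 (-0.47), Mcm2 (-0.63), Pola1 (-0.29), Pcna (-0.25), Clspn (-0.056), Fen1 (-0.41), Tyms (-0.26) and Chaf1a (-0.44). Of 3526 recomputed values of named members 3220 kept their call, 204 lost it and 79 gained it, and 35 changed sign with no call. In comparisons whose same-numbered libraries did not deviate together (correlations -0.039 to 0.026), the replicate block gave 6, 25, 30, 31 and 8 members for GS-KO against WT from BFU-E to ERY-V-VI. It gave 31 for the interaction. For CFU-E against BFU-E it gave 36, in a fit that omits CFU-E replicates 4 and 5, the only Xist libraries of that comparison. For ERY-I against CFU-E, where same-numbered libraries did deviate together, it gave 15 and omits ERY-I replicates 6 and 7. The members had their lowest counts in ERY-VI, 332 to 617 per library over the 37 genes.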
